A study of Rattus norvegicus with 2 samples.

Results

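The gene set described here is the part of the rat transcriptome that is encoded in mitochondrial DNA. Its members were taken as every gene of the deposited matrix whose symbol starts with Mt-, which gave 13 of the 32623 genes listed. A further 24 rows of the matrix come from the mitochondrial genome but carry 1 shared name and no symbol of their own, so that 37 rows are mitochondrial in all. The 13 members are the analysis set, and the 24 rows are described apart from them.

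Leukocytes were isolated from the left ventricles of wild-type rats 7 days after surgery, from the infarct and the tissue around it, stained with propidium iodide and an antibody to CD45, and sorted for CD45. Per the labels, 1 sample is from rats with a myocardial infarction (MI) and 1 from rats treated in addition with PUR-hAESC (MI+PUR-hAESC), human amniotic epithelial stem cells on polyurethane laid onto the heart. Both samples share the infarction and the sort. The number of rats pooled per sample and their age are not stated in any source used here. The deposited count matrix holds both samples as droplets with barcode suffix 1 or 2, and which suffix belongs to which group is not known. They are called library 1 and library 2, and what differs between them says nothing of the treatment. Neither has a replicate, and differences are given without a test. Intervals are 95% exact binomial intervals for shares and exact Poisson intervals for levels, and cover counting error only.

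The mitochondrial genome is a small circle that is present in many copies per cell and encodes a core set of subunits of the respiratory chain, together with ribosomal and transfer RNAs. Its protein products sit in complex I (NADH dehydrogenase, Mt-nd1 to Mt-nd6 and Mt-nd4l), complex III (cytochrome b, Mt-cyb), complex IV (cytochrome c oxidase, Mt-co1 to Mt-co3) and ATP synthase (Mt-atp6 and Mt-atp8). Both strands are transcribed as long precursors that are cut into single RNAs, and all other subunits of these complexes are made from nuclear genes. Neutrophils are known for few mitochondria and a reliance on glycolysis, while resting lymphocytes rely more on respiration. In single-cell data the share of mitochondrial RNA is also read as a mark of damaged cells, which is why it is usually capped. No cap was applied here.

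Library 1 held 14283 barcodes with 72506643 unique molecular identifiers (UMIs, 1 per captured RNA), and library 2 held 15666 barcodes with 82802439. The median was 3692 UMIs per barcode in library 1 and 4367.5 in library 2. Ptprc, the gene of CD45, had a UMI in 90.5% and 92.5% of barcodes, and in 80.3% or more of the cells of each class with at least 200 cells. A total of 71 barcode sequences occurred in both libraries, and leaving them out kept the log2 ratio of the share between libraries within its interval in every class. Cells were gated by how many genes of fixed marker lists they expressed, with no mitochondrial gene among them. This left 24.2% and 25.7% of barcodes unassigned and gave 6 classes with at least 200 cells in each library. A class of thymocyte-like cells, gated on Rag1 or Rag2, reached that size in library 2 alone, with 762 cells.

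The mitochondrial share differed most between neutrophil-like cells and all other classes, and it was lower in library 2 than in library 1 in each of the 6 classes. In neutrophil-like cells the 13 genes held 1.26% of UMIs in library 1 (interval 1.26 to 1.27, 4381 cells) and 1.10% in library 2 (1.09 to 1.11, 1875 cells). In the other 5 classes the shares ran from 3.35% to 4.36% in library 1 and from 2.75% to 3.62% in library 2. Both ranges lie above the neutrophil-like values of both libraries.

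B-like cells stood at the top. Their share was 4.36% (4.34 to 4.39, 737 cells) in library 1 and 3.62% (3.61 to 3.64, 1537 cells) in library 2. Macrophage-like cells followed with 3.67% (3.66 to 3.68, 1883 cells) and 3.44% (3.43 to 3.45, 1662 cells). T-like cells came next in both libraries, with 3.53% (3.52 to 3.54, 2177 cells) and 2.97% (2.97 to 2.98, 3653 cells). Monocyte-like cells had 3.39% (3.37 to 3.41, 505 cells) and 2.78% (2.76 to 2.80, 555 cells), and NK-like cells 3.35% (3.33 to 3.36, 942 cells) and 2.75% (2.73 to 2.76, 1478 cells). The order of the 6 classes was thus the same in both libraries, although the intervals of the monocyte-like and NK-like cells lay less than 0.01 percentage points apart. Thymocyte-like cells of library 2 had 2.80% (2.78 to 2.82), and their interval overlapped that of the monocyte-like cells.

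**Figure D1:**
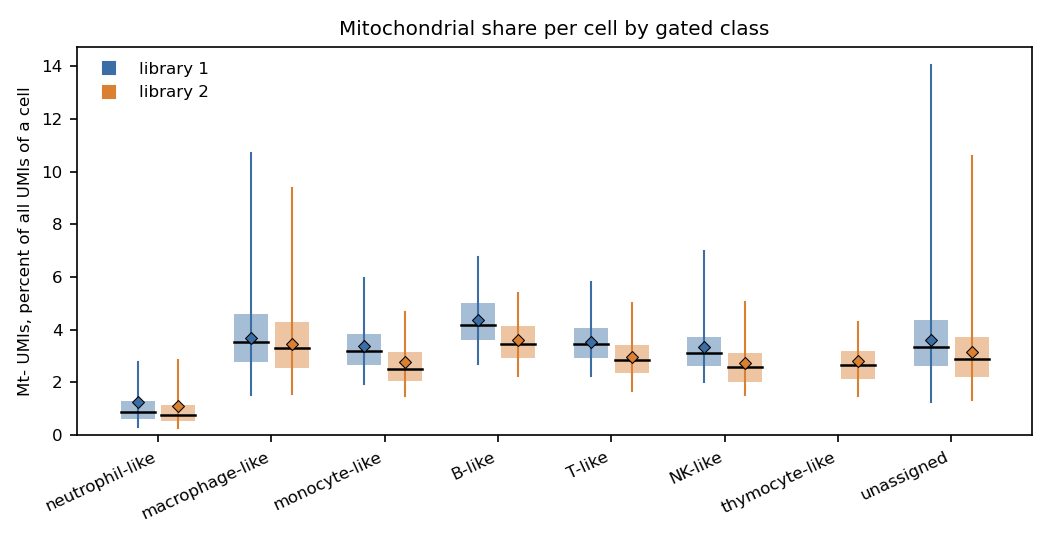
The vertical axis gives Mt- UMIs as a percent of all UMIs of a cell, for each gated class and library; boxes span the quartiles of the cells, black lines their median, whiskers the 5th to the 95th percentile, and diamonds the share of the summed UMIs. Neutrophil-like cells sit lowest, with medians of 0.862% and 0.769%, and the long upper whisker of the unassigned barcodes reaches 14.0% in library 1.

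Within classes the cells spread widely. The median neutrophil-like cell had 0.862% in library 1 and 0.769% in library 2, below the share of the summed UMIs, and rested on 19 and 21 mitochondrial UMIs. The median macrophage-like cell had 3.54% and 3.29%, on 248 and 215 mitochondrial UMIs. The 95th percentile of the neutrophil-like cells (2.75% and 2.85%) lay near the lower quartile of the macrophage-like cells (2.76% and 2.54%), and above it in library 2. The single cells of these classes thus overlapped in part.

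Each class also differed in depth and in what else filled its RNA, and the part of these in the difference was not tested. The median neutrophil-like cell had 2229 and 2551 UMIs, against 6985 and 6528.5 for macrophage-like cells. The 10 neutrophil markers, which include the abundant calprotectin genes S100a8 and S100a9, reached 134835 and 174321 CPM (UMIs of the genes scaled to the same total in every class) in the neutrophil-like cells. They reached 212 to 375 CPM in the other classes, apart from 1717 and 2366 CPM in monocyte-like cells. Among cells with 2000 to 5000 UMIs only, the neutrophil-like share was 0.312 times that of T-like cells in library 1 and 0.314 times in library 2. Over cells of every depth it was 0.358 and 0.370 times.

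The 13 genes did not differ between classes by a common factor. For each of them the neutrophil-like cells had the lowest level of the 6 classes in both libraries. How many of all genes were lowest in this class was not counted, so a lowest level alone does not set these genes apart. The median of the other 5 classes was 1.70-fold and 1.58-fold that of neutrophil-like cells for Mt-co1, the smallest gap in each library. It was widest for Mt-nd5 in library 1 (6.20-fold) and for Mt-nd4l in library 2 (5.94-fold). A UMI marks a transcript's end and the lengths of these genes were not used here, so levels are compared between classes and libraries and not read as copy numbers between genes.

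The complex IV genes Mt-co1 and Mt-co3 showed the smallest gaps. Mt-co1, the catalytic subunit of cytochrome c oxidase, had 3998 CPM in neutrophil-like cells of library 1 (3960 to 4036) and 3419 CPM in library 2 (3373 to 3465). The other classes had 5574 to 7434 CPM and 4450 to 6864 CPM. Neutrophil-like cells were therefore lowest in both libraries, but their level lay within 1.70-fold of the middle class.

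Mt-co3, another core subunit of cytochrome c oxidase, had 1897 and 1655 CPM in neutrophil-like cells, and the median of the other classes was 2.33-fold and 2.18-fold that level. Mt-co2, the subunit that takes up electrons from cytochrome c, had 2188 and 1897 CPM, against 3.37-fold and 3.22-fold in the others. The 3 subunits of 1 complex thus stood at different distances.

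The ATP synthase genes stood apart from each other. Mt-atp6, part of the proton channel, had 1435 and 1326 CPM in neutrophil-like cells, with the other classes at a median of 3.15-fold and 2.86-fold. Mt-atp8, a small subunit read from a frame that overlaps Mt-atp6, had 224 and 229 CPM there, with the others at 4.40-fold and 4.19-fold. Because the frames overlap on 1 RNA, reads could be split between these genes in counting, and the same holds for Mt-nd4l and Mt-nd4.

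Complex III and complex I genes had gaps of 3.62-fold or more in both libraries. Mt-cyb, the cytochrome b of complex III, had 888 and 786 CPM in neutrophil-like cells and 4.23-fold and 4.10-fold that level in the median of the others. Of complex I, the core membrane subunits Mt-nd1 (3.68-fold and 3.73-fold), Mt-nd2 (3.62-fold and 3.67-fold) and Mt-nd3 (3.98-fold and 3.88-fold) lay closest to neutrophil-like cells. Mt-nd4 followed with 4.54-fold and 4.78-fold, Mt-nd6 had 4.52-fold and 5.74-fold, and Mt-nd4l 4.97-fold and 5.94-fold.

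Mt-nd5, the most distal proton-pumping subunit of complex I, had 112 CPM (106 to 119) and 101 CPM (92.8 to 109) in neutrophil-like cells, with the others at a median of 6.20-fold and 5.30-fold. The other classes had 525 to 852 CPM in library 1 and 457 to 698 CPM in library 2. Mt-nd6, which is the only protein gene read from the other strand, was the scarcest member in every class. It had 24.7 CPM (266 UMIs) and 21.6 CPM (134 UMIs) in neutrophil-like cells, and 98.9 to 167 CPM and 110 to 186 CPM in the other classes.

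At the upper end, B-like cells had the highest level of 12 of the genes in both libraries and of Mt-co1 in library 1. In library 2 Mt-co1 was highest in macrophage-like cells, with 6864 CPM against 6029 CPM in B-like cells. Mt-co2 reached 8827 CPM in B-like cells of library 1 and 7399 CPM in library 2, the highest value of any member in each library.

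The composition of the mitochondrial UMIs followed from this. Mt-co1 made up 31.7% (31.4 to 31.9) of the Mt- UMIs of neutrophil-like cells in library 1 and 31.0% (30.7 to 31.4) in library 2. In the other 5 classes it made up 15.8% to 20.1% and 14.96% to 19.95%, lowest in T-like cells and, of the 5, highest in monocyte-like cells of library 1 and macrophage-like cells of library 2. Together the 3 complex IV genes made up 64.0% and 63.3% in neutrophil-like cells, against 48.2% to 54.5% and 47.6% to 53.2% elsewhere.

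The 7 complex I genes took the smaller part that this leaves. They made up 15.8% and 15.4% of the Mt- UMIs in neutrophil-like cells and 21.0% to 24.4% and 22.04% to 24.48% in the other classes. Mt-cyb took 7.03% and 7.14%, against 9.37% to 12.0% elsewhere over both libraries. ATP synthase genes differed least, with 13.1% and 14.1% against 14.4% to 16.3%.

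**Figure D2:**
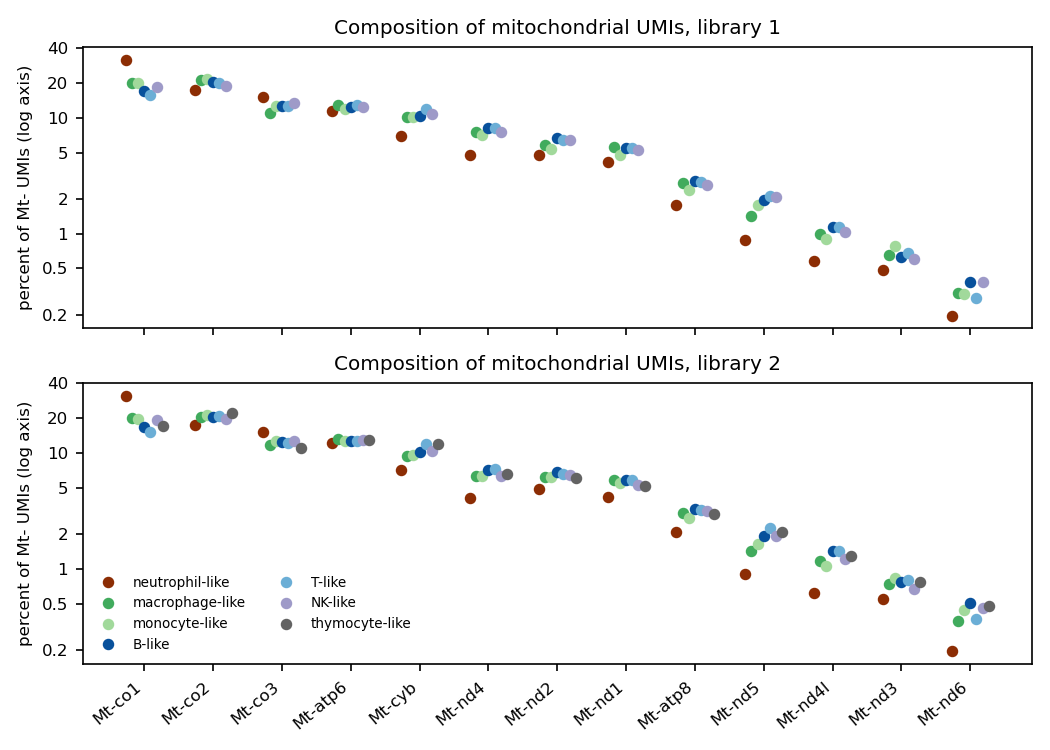
Each point gives a gene's share of the Mt- UMIs of a class (log axis), for library 1 above and library 2 below. Genes are ordered by their share in neutrophil-like cells of library 1. Neutrophil-like cells lie above the other classes for Mt-co1 (31.7% and 31.0%) and Mt-co3 (15.02% and 15.03%) and below them for every complex I gene and Mt-cyb.

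The excess of Mt-co1 also appeared when barcodes were sorted by their mitochondrial share in place of a class. In barcodes with a share under 1%, Mt-co1 made up 40.1% and 38.3% of the Mt- UMIs. In the bands above 1% it made up 16.8% to 19.0% in library 1 and 17.8% to 20.5% in library 2. Of the barcodes under 1%, 2644 of 2843 in library 1 and 1255 of 1459 in library 2 were neutrophil-like, so both views rest largely on the same cells. Erythroid-like cells, whose median share was also low, had Mt-co1 at 15.8% (11.2 to 21.2, 222 UMIs) and 18.4% (15.5 to 21.6, 653 UMIs) of their summed Mt- UMIs. In library 1, 1 of the 8 had a share over 10%, while the median cell held 2 mitochondrial UMIs. The summed value there therefore need not describe the cells with a low share.

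The mitochondrial rows without a symbol of their own gave another pattern. The 24 rows held 769115 UMIs in library 1 and 838959 in library 2, and 2 of them held 99.6% and 99.7% of these. The files do not pair either with a gene name. The other 22 rows stayed at or below 7.16 CPM in each library.

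In neutrophil-like cells the higher of the 2 rows had 8684 CPM in library 1 and 7896 CPM in library 2, and the lower had 2318 and 2188 CPM. In T-like cells they had 7873 and 7535 CPM, and 2158 and 2106 CPM. These levels in neutrophil-like cells lay within the range of the other classes (6365 to 10313 CPM and 1663 to 3016 CPM), unlike those of all 13 genes with a symbol. B-like cells had the highest levels of both rows in both libraries, as they did for most of the 13 genes.

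As a result the 24 rows made up 46.8% and 47.9% of all mitochondrial UMIs in neutrophil-like cells. They made up 20.1% to 23.5% in the other classes of library 1 and 22.5% to 25.8% in those of library 2, and 28.2% in thymocyte-like cells. Counting these rows with the 13 genes moved the neutrophil-like share from 0.358 to 0.523 times that of T-like cells in library 1, and from 0.370 to 0.536 times in library 2.

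The nuclear genes whose products join the same complexes were also lowest in neutrophil-like cells, but B-like cells did not lead. The 71 nuclear subunit genes of complexes I, III, IV and ATP synthase summed to 7659 and 7693 CPM in neutrophil-like cells and to 13095 and 12900 CPM in B-like cells. Macrophage-like cells had 19688 and 19269 CPM, T-like cells 18632 and 18421 CPM, monocyte-like cells 16731 and 17532 CPM, NK-like cells 15590 and 16082 CPM, and thymocyte-like cells 19757 CPM. B-like cells thus ranked highest for mitochondrial and lowest but one for nuclear subunit RNA.

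The ratio of the summed levels, mitochondrial over nuclear, was 3.33 and 2.81 in B-like cells. It was 1.65 and 1.43 in neutrophil-like cells and 1.86 and 1.79 in macrophage-like cells. T-like cells had 1.89 and 1.61, monocyte-like cells 2.02 and 1.59, NK-like cells 2.15 and 1.71, and thymocyte-like cells 1.42. By this ratio neutrophil-like cells were lowest of the 6 classes but near macrophage-, monocyte- and T-like cells, and thymocyte-like cells were close to them. By complex, the neutrophil-like ratio was 3.35 and 2.93 for complex IV, within the range of the other classes without B-like cells (3.13 to 3.64 and 2.61 to 3.20). For complex I it was 0.792 and 0.673, below every other class (1.34 to 2.80 and 1.06 to 2.41).

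Of the 24 nuclear genes named by the rule (3 per list), 21 were lower in neutrophil-like cells than in each of the other 5 classes in both libraries. The share of all genes that were lowest in this class was not counted, so the 21 are not read as a trait of these genes. Cox8a, Uqcr10 and Vdac2 were the exceptions. Cox4i1, a nuclear subunit of complex IV, had 367 and 401 CPM in neutrophil-like cells and 886 to 1360 CPM in the other 5 classes over both libraries. Cox8a, a further subunit, had 652 and 544 CPM there, above the 468 and 430 CPM of B-like cells. Uqcr10 of complex III had 178 and 160.0 CPM, against 156 and 145 CPM in B-like cells. Atp5mc2, which encodes the ring subunit of ATP synthase, had 109 and 126 CPM against 576 to 755 CPM. Of complex I, Ndufa13 had 187 and 216 CPM in neutrophil-like cells and 218 to 466 CPM elsewhere, and of complex III, Uqcrh had 192 and 206 CPM against 431 to 764 CPM.

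**Figure D3:**
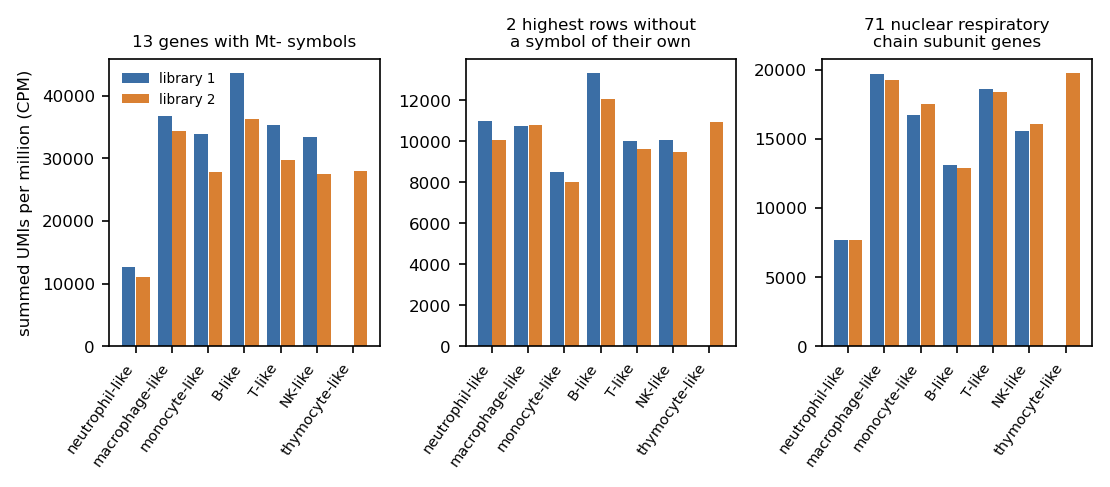
Bars start at 0 and give summed CPM by class and library for the 13 Mt- genes, the 2 highest mitochondrial rows without a symbol of their own, and the 71 nuclear respiratory chain subunit genes. Neutrophil-like cells are lowest in the left panel (12630 and 11012 CPM) and the right panel (7659 and 7693 CPM) but not in the middle one.

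The genes that copy, process and translate mitochondrial RNA are all nuclear. The list of 28 transcription and RNA handling genes, which includes the mitochondrial polymerase and the nucleases that cut the precursors, summed to 230 and 229 CPM in neutrophil-like cells. It summed to 584 to 947 CPM in the other 5 classes of library 1 and 652 to 849 CPM in library 2, with the highest sums in B-like cells. Within it, Rexo2, an oligoribonuclease, had 20.9 and 17.7 CPM in neutrophil-like cells and 324 and 266 CPM in macrophage-like cells. Hsd17b10 and Trmt10c, which both belong to the enzyme that cuts the leading end of mitochondrial transfer RNAs, had 39.3 and 46.1 CPM, and 13.8 and 15.3 CPM, in neutrophil-like cells. In B-like cells they had 138 and 124 CPM, and 82.6 and 69.4 CPM.

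The 76 mitochondrial ribosomal protein genes summed to 1952 and 2013 CPM in neutrophil-like cells and to 3369 to 4279 CPM in the other 5 classes. Mrpl54 had 26.8 and 28.2 CPM there, against 128 to 204 CPM. The 11 genes of mitochondrial mass and biogenesis summed to 515 and 499 CPM, against 852 to 1167 CPM, and the 4 genes of complex II, the only complex with no mitochondrially encoded subunit, to 155 and 150 CPM against 219 to 511 CPM. Vdac2, a pore of the outer membrane, had 240 and 242 CPM in neutrophil-like cells against 225 and 247 CPM in B-like cells.

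The nuclear genes with the profile most like that of the summed mitochondrial level were found over 13 points, each a class in a library, among 5012 genes. They were Eef1e1 (Pearson's r = 0.989), which encodes a factor of the aminoacyl-tRNA synthetase complex, the mitochondrial ribosomal gene Mrpl23 (0.979), Commd4 (0.968), Gadd45gip1 (0.960), which encodes a mitochondrial ribosome protein, Atp5mc2 (0.959) and Erp44 (0.958), which encodes a chaperone of the secretory pathway. These r are a description, since points share libraries and depth. The low neutrophil-like points weigh in all of them: without those, over 11 points, Eef1e1 and Mrpl23 had r = 0.90 and the others 0.53 to 0.76. Eef1e1 had 6.77 to 8.55 CPM in neutrophil-like cells and 33.4 to 65.7 CPM in the others.

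Between the libraries the share was lower in library 2 in each of the 6 classes, by 6.28% in macrophage-like cells, 12.8% in neutrophil-like, 15.7% in T-like, 17.0% in B-like, 17.9% in monocyte-like and 18% in NK-like cells. The intervals of both libraries lay apart in each class. Over all barcodes the share was 3.24% in library 1 and 2.95% in library 2, which is 8.82% lower. With the 6 classes weighted equally it was 3.26% and 2.78%, or 14.8% lower. The libraries also differed in makeup, with 4381 neutrophil-like barcodes in library 1 and 1875 in library 2.

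The single genes were set beside all genes with at least 50 CPM in the higher library, on the scale of log2 of CPM plus 10. Of the 78 values (13 genes in 6 classes), 65 were lower in library 2 and 13 higher, and none passed 1.5-fold in either direction. In NK-like cells all 13 genes were lower, against 57.5% of all genes, but 10 with TMM factors, an alternative scaling. In monocyte-like cells 12 were lower against 37.5%, and in T-like cells 11 against 59.0%. In neutrophil-like cells 11 were lower against 59.3%, in B-like cells 10 against 54.5%, and in macrophage-like cells 8 (10 with TMM factors) against 44.3%. The counts for neutrophil-like cells include Mt-nd6, which did not reach 50 CPM there.

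The median log2 ratio of the members was -0.24 in NK-like, -0.23 in B-like, -0.22 in monocyte-like, -0.19 in T-like, -0.16 in neutrophil-like and -0.03 in macrophage-like cells. The median of all genes lay between -0.07 and 0.03 in these classes, apart from 0.13 in monocyte-like cells. A fold of 1.5 was passed by none of the members. Of all genes, 5.23% were lower and 4.87% higher by that fold in neutrophil-like cells, 7.58% and 12.9% in monocyte-like cells, and 1.39% and 3.29% in macrophage-like cells. In the lymphoid classes these were 0.599% and 0.725% (B-like), 0.965% and 0.932% (T-like), and 1.30% and 1.71% (NK-like). In macrophage-like cells the median member was thus near its level in library 1. The summed share was nevertheless 6.28% lower there.

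Mt-nd4, a proton-pumping subunit of complex I, differed most. It had 2509 CPM in NK-like cells of library 1 and 1739 CPM in library 2 (log2 ratio -0.53). In B-like cells it had 3570 and 2579 CPM (-0.47), and in monocyte-like cells 2412 and 1762 CPM (-0.45). In neutrophil-like cells it had 603 and 448 CPM (-0.42), in T-like cells 2858 and 2140 CPM (-0.42), and in macrophage-like cells 2739 and 2192 CPM (-0.32). The Poisson intervals lay apart in all 6 classes. It was also lower as a share of the Mt- UMIs in all 6, with a median log2 ratio of -0.21 and a range from -0.24 to -0.17.

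Mt-co1, Mt-co3 and Mt-cyb were lower in all 6 classes as levels, with medians of -0.27, -0.29 and -0.27. As shares of the Mt- UMIs they were lower in 4, 4 and 5 classes, by small amounts (medians of -0.03, -0.03 and -0.05). Mt-co2, Mt-atp6, Mt-nd1 and Mt-nd5 were lower in all 6 classes as levels, with medians between -0.23 and -0.17. Mt-nd2 was lower in 5.

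The levels of the remaining 4 members showed no common direction over the classes. Mt-atp8 had a median log2 ratio of -0.03 (lower in 4 classes), Mt-nd3 0.01 (lower in 3), Mt-nd4l 0.01 (lower in 3) and Mt-nd6 0.13 (lower in 2). As shares of the Mt- UMIs all of them, and Mt-nd1, were higher in library 2 in all 6 classes, with medians of 0.22, 0.19, 0.26, 0.34 and 0.07. Some differences were near 0, as for Mt-nd6 in neutrophil-like cells (0.1956% and 0.1961%) and Mt-nd1 in NK-like cells (5.240% and 5.244%). The intervals overlapped there. They also overlapped for Mt-nd1, Mt-nd3 and Mt-nd4l in neutrophil-like cells, and for Mt-nd3 in monocyte- and NK-like cells. Mt-nd4l, which lies directly before Mt-nd4 and is read from the same RNA, thus took a larger part of the mitochondrial UMIs in library 2 where Mt-nd4 took a smaller one. In T-like cells Mt-nd4l had 1.14% and 1.44% of the Mt- UMIs, and Mt-nd4 had 8.11% and 7.20%.

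**Figure D4:**
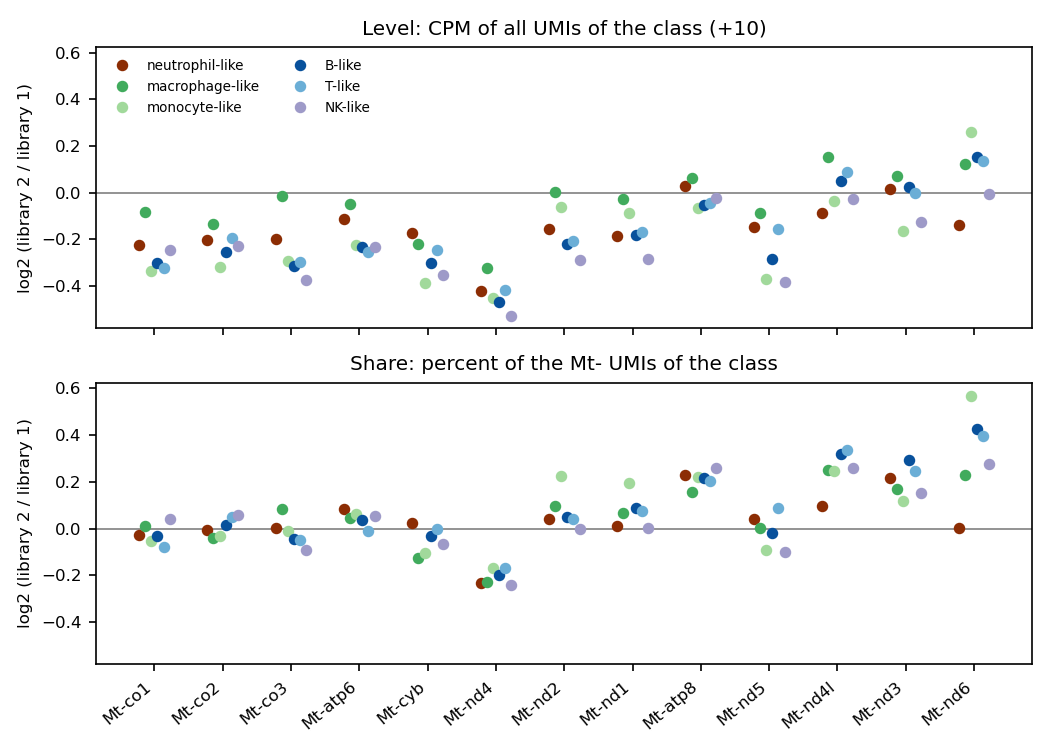
Points give log2 of library 2 over library 1 for each gene and class, as a level (CPM plus 10, above) and as a share of the Mt- UMIs (below). Mt-nd4 lies below 0 in both panels in all 6 classes (level -0.53 to -0.32, share -0.24 to -0.17), and Mt-atp8, Mt-nd3, Mt-nd4l and Mt-nd6 lie above 0 in the lower panel.

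The summed level of the nuclear genes of the same complexes differed less between the libraries in each of the 6 classes. In T-like cells the 71 nuclear subunit genes summed to 18632 and 18421 CPM, in B-like cells to 13095 and 12900 CPM, and in NK-like cells to 15590 and 16082 CPM. Medians of a list were taken over its members with at least 10 CPM in the higher library. For complex I (34 or 35 of 38 genes) the median log2 ratio ran from -0.07 in macrophage-like to 0.11 in monocyte-like cells. In T-like cells 23 of the 35 complex I genes with at least 10 CPM were lower in library 2, against 59.0% of all genes. Here and below, list members were counted from 10 CPM, but all genes from 50 CPM, so the 2 shares are not strictly alike. In macrophage-like cells 24 of 35 were lower against 44.3%, and their median of -0.07 lay below the -0.03 of the mitochondrial members. For the 9 genes of complex IV the median reached 0.11 in NK-like cells, and for 14 of the 15 of ATP synthase it ran from -0.05 to 0.02. The RNA handling list was lowest in B-like cells (-0.12, 18 of 24 genes lower against 54.5% of all genes), and the mitochondrial ribosome list highest in monocyte-like cells (0.23, 14 of 67 genes lower against 37.5% of all genes, whose median there was 0.13).

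The share varied with depth in most classes. In macrophage-like cells of library 1 it was 8.29% at 1000 to 2000 UMIs (164 cells), 4.92% at 3000 to 5000 (249 cells) and 3.23% at 10000 to 20000 (381 cells). In library 2 it was 7.08%, 4.18% and 3.13% in the same bands. T-like cells went from 8.23% at 1000 to 2000 UMIs (40 cells) to 3.30% at 10000 to 20000 (222 cells) in library 1, and from 4.51% (156 cells) to 2.92% (345 cells) in library 2. Shallow cells of these classes thus had a higher share in both libraries.

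Neutrophil-like cells went the other way above 2000 UMIs. In library 1 their share was 1.05% at 2000 to 3000 UMIs (2348 cells) and 2.70% at 10000 to 20000 (27 cells), and in library 2 it was 0.874% (698 cells) and 1.37% (50 cells). Leaving out the barcodes called as doublets (5.01% of library 1 and 7.03% of library 2) moved the ratio of neutrophil-like to T-like cells to 0.327 and 0.330.

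Of the depth bands with a value for B-like cells, they stood at the top at 5000 to 10000 UMIs only. At 5000 to 10000 UMIs they had 4.51% (36 cells) and 3.93% (62 cells), above the 3.55% and 3.24% of macrophage-like cells. At 2000 to 3000 UMIs they had 4.44% (335 cells) and 3.53% (805 cells), below the 6.40% and 6.23% of macrophage-like cells (146 and 124 cells). Macrophage-like cells were also higher at 3000 to 5000 UMIs, with 4.92% and 4.18% against 4.18% (297 cells) and 3.59% (542 cells) in B-like cells. The same held at 1000 to 2000 UMIs, with 8.29% and 7.08% against 5.11% (49 cells) and 4.21% (102 cells). Neutrophil-like cells were lowest in each of these bands. Under 1000 UMIs the share was higher in library 2 in both large classes with a value in each library, where neutrophil-like cells had 2.33% (100 cells) and 3.20% (76 cells) and macrophage-like cells 6.73% (30 cells) and 7.61% (29 cells). Unassigned barcodes of that depth had 15.6% and 10.3%. Over all barcodes library 2 was also higher at 1000 to 2000 UMIs (3.24% and 3.75%) and at 2000 to 3000 UMIs (2.25% and 2.95%), where 1327 of 1969 and 2348 of 3339 barcodes of library 1, but 416 of 1710 and 698 of 2451 of library 2, were neutrophil-like.

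**Figure D5:**
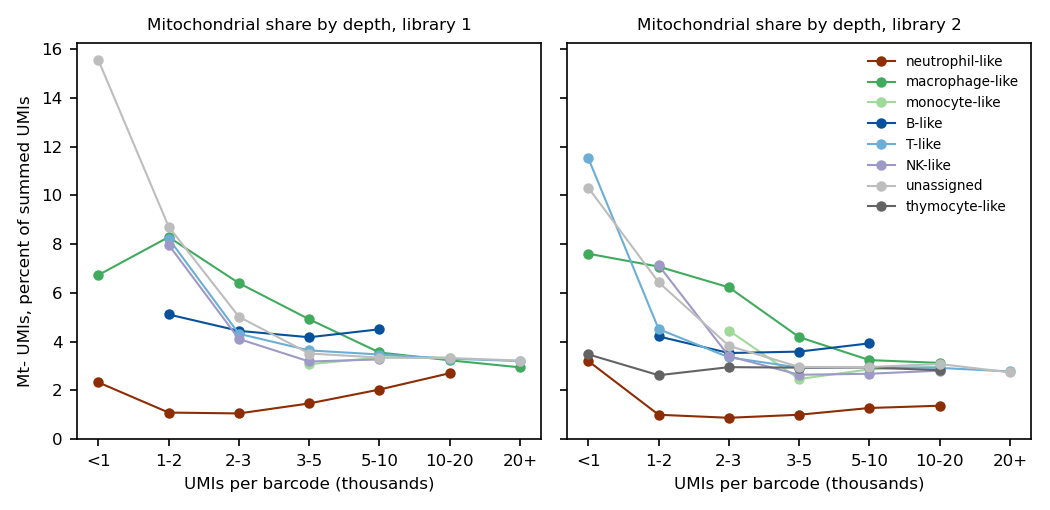
Lines join the share of Mt- UMIs (percent of summed UMIs) over bands of UMIs per barcode, with the axis in units of 1000, for each class with at least 20 cells in the band. Unassigned barcodes under 1000 UMIs reach 15.6% and 10.3%, macrophage-like cells go down from 8.29% to 3.23% between the bands at 1000 to 2000 and 10000 to 20000 UMIs in library 1, and neutrophil-like cells stay lowest.

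Barcodes with a high share were few. A share over 10% was reached by 493 barcodes of library 1 and 387 of library 2, and a share of 20% or more by 135 and 104, or 0.945% and 0.664%. The latter had a median of 1019 and 788.5 UMIs and of 396 and 352 genes, and 99 and 75 of them were unassigned. None was called as a doublet. In single classes, 5.90% and 4.15% of macrophage-like cells but 0.457% and 0.320% of neutrophil-like cells were over 10%.

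RNA of heart muscle was more abundant in these barcodes than in those between 1% and 5%, and its part in their share was not tested. The 13 cardiomyocyte markers summed to 1064 and 359 CPM in barcodes at 20% or more, and to 59.5 and 36.8 CPM in barcodes between 1% and 5%. In barcodes under 1% they summed to 290 and 150 CPM. Of the barcodes at 20% or more, 17.8% and 14.4% had a UMI of such a marker. The same held for 12.5% and 8.29% of those between 1% and 5%, and for 16.6% and 29.0% of those under 1%. At 20% or more, 2 barcodes in each library were cardiomyocyte-like. The mitochondrial rows without a symbol held 10.3% and 12.6% of UMIs in barcodes at 20% or more and 0.928% and 0.922% in those between 1% and 5%. Among the gated classes, all 13 of these markers had a UMI in macrophage-like cells of both libraries, with sums of 44.6 and 50.2 CPM. In neutrophil-like cells 13 and 10 of them had a UMI, and in T-like cells 12 in both libraries. The sums were 98.3 and 148 CPM in neutrophil-like cells and 5.75 to 18.8 CPM in the lymphoid and monocyte-like classes.

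Small classes gave the ends of the scale. The 17 and 4 cardiomyocyte-like cells, whose tissue is known for dense mitochondria, had 12.7% (12.3 to 13.1) and 17.6% (16.8 to 18.4) of summed UMIs. Their median cell had 4.93% and 34.7%. The 8 and 16 erythroid-like cells, of a lineage that loses its mitochondria as it matures, had a median of 0.0469% and 0.127%, or 2 and 6.5 mitochondrial UMIs per cell at a median of 6213 and 6398 UMIs. Their summed shares were 0.402% and 0.586%, and 1 of the 8 in library 1 was over 10%. The median erythroid-like droplet held fewer mitochondrial UMIs than the median cell of each of the 6 large classes. Conventional dendritic-like cells had 2.97% (19 cells) and 2.85% (21 cells), plasmacytoid dendritic-like cells 3.27% (27 cells) and 3.02% (23 cells), and endothelial-like cells 2.70% (104 cells) and 1.99% (33 cells).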

How the data were processed

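The authors deposited a matrix of raw counts, in UMIs, which Cell Ranger 4.0.0 wrote per the file headers. Genome build, annotation, strand setting and cell calling: not given in the sources used here. A deposited table of 33756 barcodes was not used, as it matches the matrix in 111 barcodes alone. Every barcode was kept. A cell took the class with the largest share of its markers detected, if at least 3 were (2 for short lists) and every other list's share was at most 0.6 times that. Symbols on several lines were summed. Counts were summed per class and library and divided by all UMIs. Named were all Mt- genes, the leading 3 of each nuclear list, and the 6 genes with the most similar profile. Members, lists and subsets were chosen with earlier results of these data known. Alternatives covered cell filters, gate, doublets (Scrublet, scanpy 1.11.5), depth, numerator, denominator, TMM factors (edgeR 4.0.16, R 4.3.3), the pseudocount and the level minimum. Python 3.11.15, numpy 2.4.6, scipy 1.17.1, pandas 2.3.3 and matplotlib 3.10.9 were used, and the steps were tested on simulated data. No mitochondrial sequence was used here.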

Additional observations from a re-analysis of the deposited data

Results flagged for a closer look

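Signal lay outside the 13 genes with a symbol, in 2 mitochondrial rows that share 1 name with 22 others. ENSRNOG00000043866 had 8489 CPM in library 1 and 8006 CPM in library 2. ENSRNOG00000030478 had 2075 CPM in library 1 and 2093 CPM in library 2. Rows listed only by the shared name are missed when mitochondrial genes are found by their symbol, and these 2 lie far above the level that a count of 0 allows.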

How the results depend on the processing

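The log2 ratio of the share, library 2 over library 1, was negative in all 56 alternative values (7 populations, 8 settings), from -0.353 to -0.0405. In the order all barcodes, neutrophil-, macrophage-, monocyte-, B-, T- and NK-like, it was -0.133, -0.198, -0.0935, -0.285, -0.269, -0.246 and -0.286 as reported. With all mitochondrial rows in the numerator it was -0.116, -0.167, -0.0697, -0.242, -0.238, -0.202 and -0.236. Among cells with 2000 to 5000 UMIs it was -0.0405 for all barcodes, -0.302, -0.19 and -0.327 for the myeloid classes, -0.312 for T-like and -0.269 for NK-like cells. As the median of cells it was -0.0711, -0.164, -0.106 and -0.353 for the first 4 and -0.276 for T-like cells. Without ribosomal protein and haemoglobin genes in the denominator it was -0.0818 for all barcodes, -0.307 for monocyte-like, -0.243 for B-like and -0.21 for T-like cells. It was -0.238 for neutrophil-like cells without doublets and -0.226 for monocyte-like cells under a gate with 1 marker more. With the cell filters (at least 200 genes, at most 20% mitochondrial) it was -0.126 for all barcodes and -0.264 for NK-like cells.

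The neutrophil-like share over the T-like share was 0.251 and 0.271 as medians of cells, 0.293 and 0.297 without ribosomal and haemoglobin genes, and 0.327 and 0.33 without doublets. It was 0.312 and 0.314 at 2000 to 5000 UMIs and 0.523 and 0.536 with all mitochondrial rows. The cell filters gave 0.354 in library 1 and the stricter gate 0.364 in library 2. The excess of Mt-co1 in neutrophil-like over T-like cells was 15.9 and 16.1 percentage points, and in settings added after seeing the data 17.7 and 19.0 without doublets and 18.3 and 21.0 at 2000 to 5000 UMIs. For the rows under the shared name it was 24.6 and 23.4 points, then 26.3 and 25.8, and 24.9 and 24.0, and 23.8 in library 2 with the stricter gate.

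As shares of mitochondrial UMIs, 3 (neutrophil-like), 3 (macrophage-like), 6 (monocyte-like), 5 (B-like), 5 (T-like) and 5 (NK-like) of the members were lower in library 2. The median log2 ratios that changed sign were those of Mt-nd1 (0.0704), Mt-nd2 (0.0441), Mt-co2 (0.0031), Mt-atp8 (0.217) and Mt-atp6 (0.0486). This follows from the setting, which removes the difference in the total. TMM factors shifted the log2 ratios by -0.16 in monocyte-like cells and by at most 0.07 in size elsewhere. Other causes were not tested. No paired analysis was possible because each group has 1 library and the comparison comes from no test. Scarce members are limited by depth, with 134 UMIs of Mt-nd6 in neutrophil-like cells of library 2.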

Other observations

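Within classes the share also varied with cell state, in splits chosen after the data were seen and at fixed ranges of depth. Within these ranges the groups still differed in depth, and its part was not tested. Among T-like cells with 3000 to 10000 UMIs, those with Cd4 and no Cd8a or Cd8b UMI had 3.64% (3.61 to 3.68, 233 cells) and 3.13% (3.10 to 3.15, 308 cells) of UMIs from the 13 genes. Those with Cd8a or Cd8b and no Cd4 had 3.52% (3.50 to 3.53, 999 cells) and 2.84% (2.83 to 2.85, 1717 cells), so the cells with Cd4 were higher in both libraries. NK-like cells in the same range with a UMI of Gzma, which encodes a granzyme, had 3.04% (250 cells) and 2.55% (397 cells), below the 3.31% and 2.71% of those without. Monocyte-like cells with Adgre4, an adhesion receptor, had 3.09% (220 cells) and 2.53% (388 cells). Those with Vcan and no Adgre4 had 3.51% (187 cells) and 3.31% (76 cells). These groups still differed in depth, with medians of 5135 and 4676 UMIs against 7448 and 6924.5.

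Among neutrophil-like cells with 1500 to 5000 UMIs, those with a UMI of Retnlg, a secreted protein of granulocytes, had 1.06% and 0.879% of their summed UMIs, and those without 1.15% and 1.00%. The median cell went the other way, with 0.885% and 0.730% against 0.829% and 0.691%. Mt-co1 made up 38.2% (37.6 to 38.8) and 38.6% (37.9 to 39.4) of the Mt- UMIs of the former and 32.1% (31.8 to 32.5) and 30.2% (29.5 to 30.9) of the latter. Cells with Retnlg were deeper, with medians of 2655.5 and 2815.5 UMIs against 2166 and 2182. Macrophage-like cells at 5000 to 10000 UMIs were split by Gpnmb, which encodes a lysosomal membrane protein. Their summed share was 3.63% with at least 3 UMIs against 3.44% with none in library 1, and 3.22% against 3.28% in library 2. The median cell had 3.56% against 3.26%, and 3.09% against 3.05%. Cells with at least 3 UMIs of Gpnmb were deeper, with medians of 8052 and 7670 UMIs against 6703 and 6589.5.

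Cells that expressed at least 4 division genes were compared with other cells at 5000 to 20000 UMIs. Dividing T-like cells had 3.06% (112 cells) against 3.47% in library 1 and 2.83% (266 cells) against 2.97% in library 2. Macrophage-like cells differed in direction between the libraries, with 3.19% (55 cells) against 3.43% and 3.42% (91 cells) against 3.18%. NK-like cells had 2.95% (22 cells) against 3.30%, and 2.70% (34 cells) against 2.69%. Dividing cells were deeper within this range, with medians of 10247.5 against 6716.5 UMIs in T-like and 9475 against 5744 UMIs in NK-like cells of library 1, and the part of depth was not tested. Over all depths macrophage-like cells of library 2 had 3.396% dividing against 3.444%. No difference between libraries was tested.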
